A study of Mus musculus with 77 samples.

Results

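Genes of the regulated exocytosis machinery were followed in mouse pancreatic ductal organoids in which Ngn3, the transcription factor that starts endocrine differentiation in the pancreas, was induced. The members are 49 of the 46078 genes in the count table, found by matching their symbols to Ensembl identifiers. They comprise 12 SNARE proteins, 9 proteins of the calcium sensor family (synaptotagmins and Doc2b), 12 Rab proteins and Rab effectors, 9 priming factors and SNARE regulators, and 7 proteins of the vesicle or granule membrane. From general knowledge, 30 were classed as neuroendocrine isoforms, 9 as ubiquitous isoforms and 10 as mixed. Members and classes were chosen with earlier results of these data known, so contrasts between the classes are a description. The organoids were grown from ducts of adult C57BL/6 mice and infected with lentiviral doxycycline-inducible vectors. At 2 days after induction the groups were GFP only, WT Ngn3 and 6S-A Ngn3, a form in which the serine-proline phosphorylation sites are mutated to alanine. Both Ngn3 forms were HA-tagged and made together with GFP. At 8 days the groups were WT Ngn3, 6S-A Ngn3 and no-color cells, which lacked the reporter, sorted from WT or from 6S-A organoids. Whether the no-color cells held a vector was not tested. Each group had 3 biological replicates, and each library was made from a sorted pool of 50 cells by Smart-seq2, which copies full-length transcripts without molecular identifiers. Organoids were at passage 2, except for replicate 3 at 8 days, which was at passage 5.

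Regulated exocytosis joins hormone granules or synaptic vesicles to the plasma membrane on a calcium signal. A vesicle SNARE of the VAMP family pairs with a syntaxin and a SNAP-25 family protein on the plasma membrane, synaptotagmins sense calcium, Rab3 and Rab27 with their effectors bring the granule to the membrane, and Munc13, CAPS and complexin proteins prepare it for release. Endocrine cells share many of these isoforms with neurons, whereas duct cells use widely expressed isoforms for constitutive and apical secretion.

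The 76 retained libraries held 1501002 to 5632412 gene reads at 2 days and 2397470 to 9202142 at 8 days, and technical repeats were summed within a replicate. Neurog3 itself, read at 0.0385 to 0.0731 CPM in GFP only (reads per 1000000 gene reads, normalized over all 21 replicates), stood at 89.6 to 206 CPM with WT Ngn3 and at 101 to 198 CPM with 6S-A Ngn3 at 2 days. The 10 ductal markers summed to 18369 to 20070 CPM in GFP only, 11408 to 11959 CPM with WT Ngn3 and 9273 to 10093 CPM with 6S-A Ngn3. The 7 hormone genes, led by Ghrl and Sst, summed to 0.37 to 0.951, 54.8 to 190 and 203 to 657 CPM in the same order, with Ins2 at 0 reads in every group. The 9 neuron markers, among them Nefm, Map2 and Gad1, summed to 7.35 to 10.7, 33.9 to 91.3 and 72.7 to 126 CPM, with Slc17a6 at 0 reads. Of the 6 mesenchyme markers, Vim averaged 10.4, 70.9 and 66.5 CPM, while Col3a1 had 0 reads. The acinar, glia, endothelium and immune lists stayed under 20 CPM in every 2-day replicate. The part of these markers in the changes below was not tested. In pools of cells, a lower level in each cell and fewer cells with the transcript cannot be told apart.

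**Figure D1:**
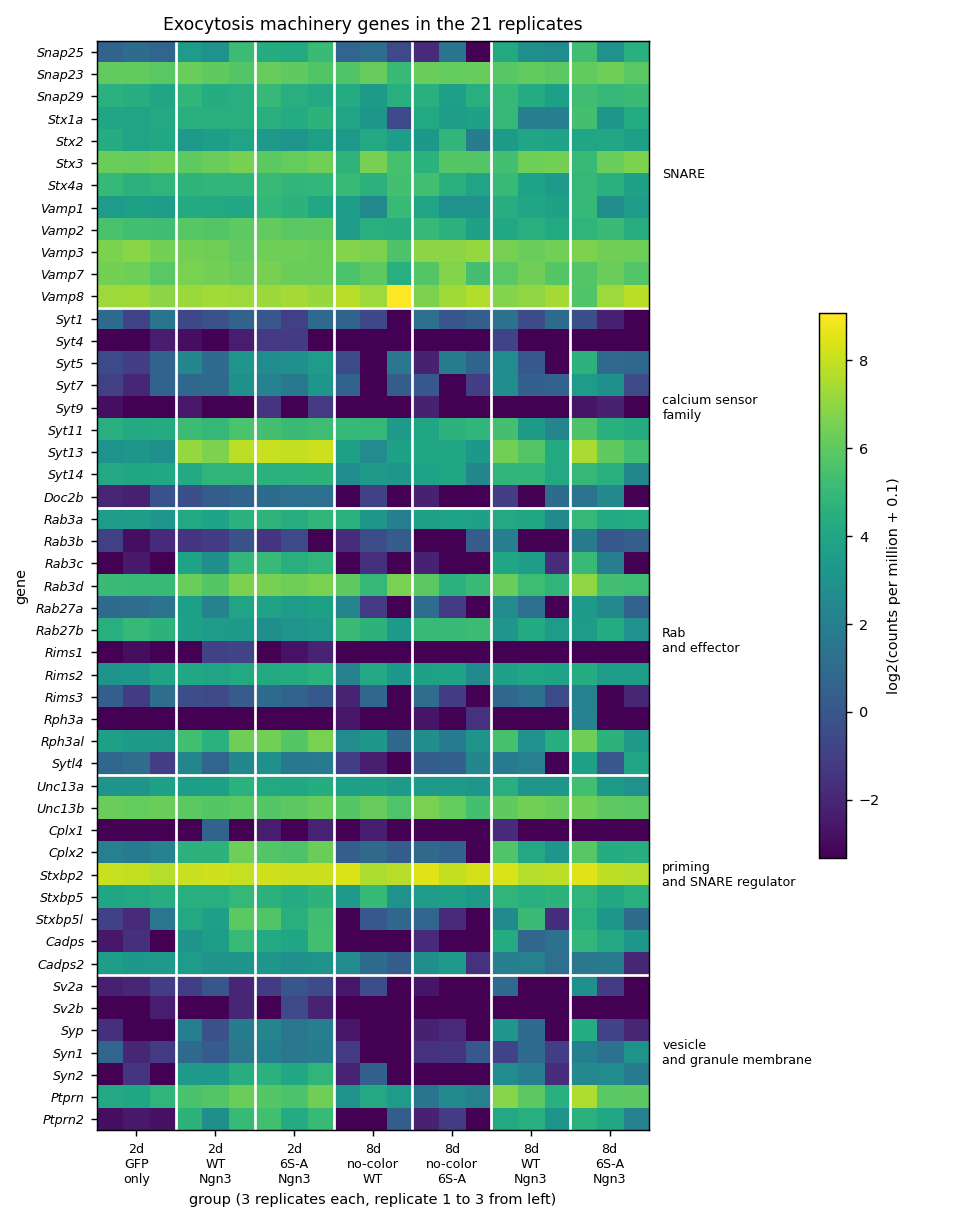
Level of each of the 49 members, as log2(CPM + 0.1) by color, in the 3 replicates of each of the 7 groups, ordered by role. Snap25, Syt13, Rab3c, Cadps, Syn2 and Ptprn2 turn from dark to light between GFP only and both Ngn3 groups at 2 days, while Snap23, Vamp8 and Stxbp2 keep 1 shade at 2 days.

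To find how Ngn3 affected the release machinery at 2 days, both forms of Ngn3 were set against 1 shared group of GFP-only samples, so the comparisons share their controls. With WT Ngn3, 18 of the 49 members were higher and 1 was lower at an adjusted p under 0.05 (edgeR, quasi-likelihood test, adjusted by Benjamini-Hochberg over 23844 genes). Of all genes tested in this comparison, 6.56% were called higher and 5.23% lower. With 6S-A Ngn3, 23 members were higher and 2 lower, against 9.43% higher and 8.62% lower over all genes. Rph3a and Cplx1 did not pass the filter on low counts at 2 days and were not tested. The neuroendocrine isoforms accounted for 13 of the 18 higher members with WT Ngn3 and 17 of the 23 with 6S-A Ngn3, and the mixed class for 5 and 6. None of the 9 ubiquitous isoforms was higher in either comparison, and Stx2 was lower with 6S-A Ngn3. The median log2 change of the tested neuroendocrine isoforms was 1.51 with WT and 2.50 with 6S-A Ngn3, and that of the mixed isoforms 1.01 and 0.75. That of the ubiquitous isoforms was 0.01 and 0.08, and that of all genes was 0.01 and 0.02. Altogether 18 members were higher with both proteins, and Rab27b was lower with both. In a fit blocked on replicate number 27 and 29 members were called in either direction, against 18% and 24.8% of all genes, and with DESeq2 23 and 29, against 15% and 21.2%. On counts simulated for the WT Ngn3 comparison, 18.2% of DESeq2's calls and 9.74% of edgeR's were false. Unadjusted p-values under 0.05 were found for 32 and 30 members and for 23% and 28.9% of all genes.

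**Figure D2:**
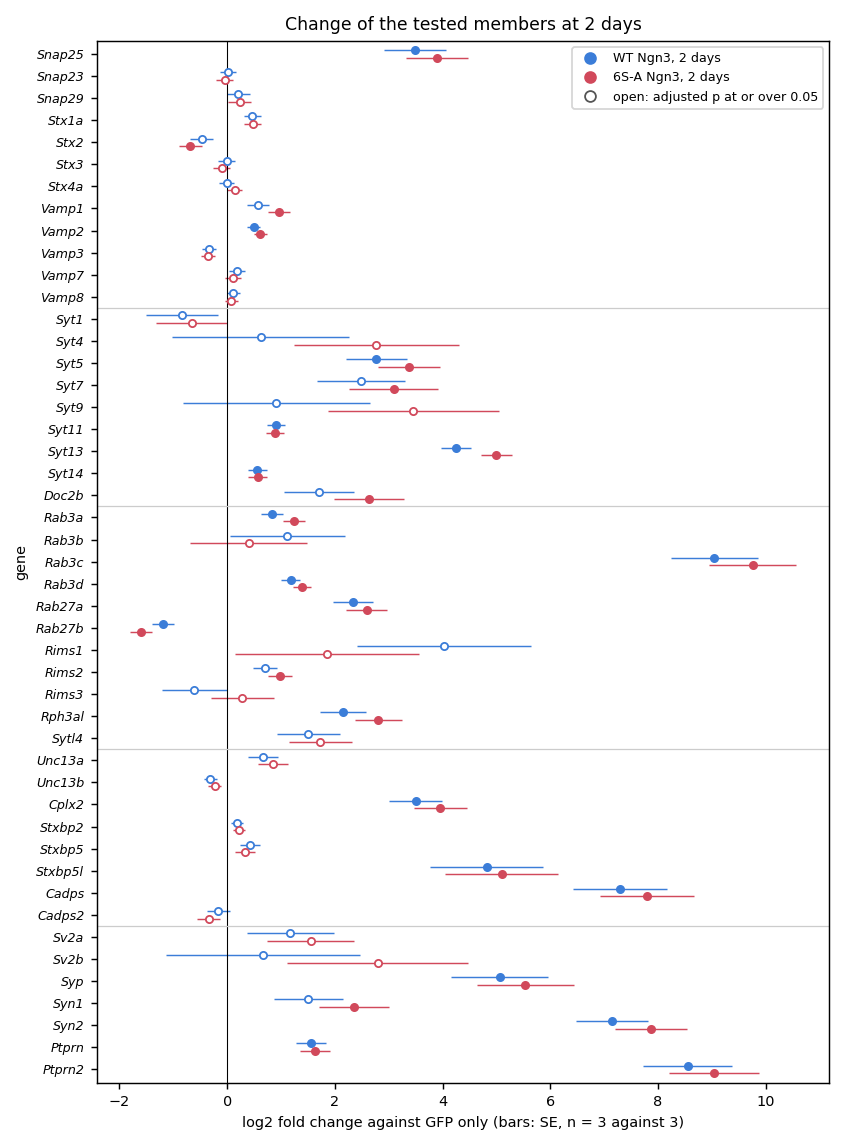
Log2 fold change against GFP only at 2 days, with its SE as the bar, of the 47 members tested, for WT Ngn3 (blue) and 6S-A Ngn3 (red), 3 replicates against 3. Filled points passed an adjusted p of 0.05, the filled points to the left of 0 are Rab27b (both proteins) and Stx2 (6S-A Ngn3), and the points farthest to the right are those of Rab3c.

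Among the SNARE proteins, Snap25 was higher with both proteins and Snap23 did not pass the test. Snap25, which forms the SNARE complex in neurons and endocrine cells, was read at 1.46, 2.00 and 1.53 CPM in the GFP-only replicates. It was read at 11.3, 8.11 and 36.5 CPM with WT Ngn3 and at 20.3, 18.8 and 35.5 CPM with 6S-A Ngn3. The groups did not overlap, replicate 3 was the highest of both Ngn3 groups, and the log2 change was 3.49 ± 0.57 (SE, adjusted p = 0.0029) with WT Ngn3 and 3.90 ± 0.58 (adjusted p = 0.000975) with 6S-A Ngn3. Snap23, its widely expressed relative, lay at 69.3, 67.6 and 59.5 CPM in GFP only, at 76.1, 66.5 and 53.6 CPM with WT Ngn3 and at 72.0, 65.6 and 52.4 CPM with 6S-A Ngn3. All 3 groups overlapped, with log2 changes of 0.01 ± 0.15 and -0.05 ± 0.15. Divided by exon length, so that genes can be set side by side, Snap23 averaged 15.2 CPM per kb in GFP only against 0.245 CPM per kb for Snap25. Snap25 made up 1.15% ± 0.205 (SD, n = 3) of the summed level per length of Snap25, Snap23 and Snap29 in GFP only, 11.2% ± 9.60 with WT and 14.8% ± 6.89 with 6S-A Ngn3. Thus Snap23 remained the more abundant gene per length in every replicate. Snap29, a SNARE of intracellular membranes, averaged 20.4, 23.3 and 24.0 CPM and did not pass the test.

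The syntaxins were all present in GFP-only cells. Stx1a, the syntaxin of neurons and endocrine cells, was read at 15.4, 15.0 and 17.8 CPM in GFP only, at 21.8, 22.8 and 21.8 CPM with WT Ngn3 and at 21.7, 19.5 and 25.7 CPM with 6S-A Ngn3. Both Ngn3 groups lay above all GFP-only replicates, but the log2 changes of 0.47 ± 0.16 and 0.47 ± 0.16 missed the threshold (adjusted p = 0.0823 and 0.0591). They passed in a fit blocked on replicate number (adjusted p = 0.0241 and 0.02). Stx3, a syntaxin of apical membranes, lay at 78.0, 74.2 and 83.8 CPM in GFP only, at 64.1, 75.1 and 94.0 CPM with WT Ngn3 and at 61.2, 70.8 and 87.8 CPM with 6S-A Ngn3. Stx4a, which serves basolateral and constitutive fusion, lay at 31.4, 24.7 and 27.4 CPM, at 26.4, 28.1 and 28.1 CPM and at 34.1, 28.5 and 29.7 CPM in the same order of groups. Neither passed the test, and their groups with Ngn3 overlapped GFP only. Stx2, another widely expressed syntaxin, was read at 20.3, 15.1 and 16.7 CPM in GFP only, at 10.4, 12.1 and 14.8 CPM with WT Ngn3 and at 10.4, 8.74 and 13.3 CPM with 6S-A Ngn3. Both Ngn3 groups were below GFP only, and the log2 change with 6S-A Ngn3, -0.69 ± 0.22, passed at an adjusted p of 0.0413. That call was lost in 5 of the 9 fits that each left out 1 replicate.

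The vesicle SNAREs showed smaller differences. Vamp2, the VAMP of synaptic vesicles and insulin granules, was read at 46.3, 39.8 and 38.6 CPM in GFP only, at 57.2, 53.2 and 64.3 CPM with WT Ngn3 and at 67.7, 60.4 and 62.9 CPM with 6S-A Ngn3. It was higher with both proteins, by 0.50 ± 0.12 (adjusted p = 0.0171) and 0.62 ± 0.12 (adjusted p = 0.00275) on the log2 scale, and the call with WT Ngn3 was lost without replicate 2 or 3 of GFP only or replicate 3 of WT Ngn3 (adjusted p up to 0.0797). Vamp1, its close relative, lay at 11.3, 13.3 and 12.2 CPM in GFP only, at 19.1, 18.6 and 16.5 CPM with WT Ngn3 and at 29.1, 25.6 and 17 CPM with 6S-A Ngn3. It was higher with 6S-A Ngn3 (log2 change 0.96 ± 0.20, adjusted p = 0.00356), while with WT Ngn3 the adjusted p was 0.089, or 0.0332 with the replicate block. Vamp3, a VAMP of recycling endosomes, was read at 99.8, 118 and 90.6 CPM in GFP only, at 90.9, 82.5 and 68.7 CPM with WT Ngn3 and at 81.2, 80.2 and 77.9 CPM with 6S-A Ngn3. Its log2 changes of -0.34 ± 0.13 and -0.36 ± 0.13 missed the threshold (adjusted p = 0.121 and 0.0686) and passed it with the block (0.0235 and 0.0130). Vamp8, a VAMP of apical and exocrine granule secretion, lay at 153, 158 and 123 CPM, at 150, 164 and 152 CPM and at 146, 170 and 142 CPM, with overlapping groups. Vamp8 averaged 62.6 CPM per kb in GFP only, above Vamp3 at 35.5, Vamp7 at 30.3 and Vamp2 at 10.9 CPM per kb. Vamp7, a SNARE of lysosomal and apical vesicles, averaged 76.7, 86.5 and 82.7 CPM and did not pass the test.

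Of the 9 members of the calcium sensor family, 4 were higher with WT and 6 with 6S-A Ngn3. Syt13, an atypical synaptotagmin that lacks the calcium-binding residues, had the highest mean level per kb of exon of them in both Ngn3 groups, at 41.1 and 69.9 CPM per kb, with Syt11 next at 7.25 and 7.19 CPM per kb. In GFP only Syt11 lay above it, at 3.89 against 2.18 CPM per kb, and Syt14 below it, at 1.41 CPM per kb. Syt13 was read at 8.01, 9.24 and 7.31 CPM in GFP only, at 139, 98.3 and 227 CPM with WT Ngn3 and at 264, 246 and 278 CPM with 6S-A Ngn3. The groups were far apart, and the log2 change was 4.25 ± 0.27 (adjusted p = 1.65e-06) with WT Ngn3 and 5.0 ± 0.28 (adjusted p = 3.51e-07) with 6S-A Ngn3. Syt5, a sensor found on dense-core granules, was read at 0.585, 0.385 and 1.43 CPM in GFP only, at 5.31, 1.94 and 8.82 CPM with WT Ngn3 and at 6.45, 7.34 and 11.1 CPM with 6S-A Ngn3. It was higher with both proteins (log2 changes 2.77 ± 0.57 and 3.38 ± 0.58). Syt7, a high-affinity calcium sensor of granule release, lay at 0.402, 0.154 and 1.48 CPM in GFP only, at 1.74, 1.88 and 7.49 CPM with WT Ngn3 and at 4.44, 3.17 and 9.50 CPM with 6S-A Ngn3. Replicate 3 was the highest of all 3 groups. The log2 change of Syt7 passed with 6S-A Ngn3 (3.09 ± 0.82, adjusted p = 0.0219) and missed with WT Ngn3 (2.48 ± 0.81, adjusted p = 0.0793), where it passed with the block (0.000312). The call with 6S-A Ngn3 was lost without replicate 1 or 2 of GFP only or replicate 3 of 6S-A Ngn3 (adjusted p up to 0.0961).

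Syt11, a synaptotagmin that does not bind calcium, was read at 22.0, 18.9 and 19.7 CPM in GFP only, at 36.6, 30.1 and 46.5 CPM with WT Ngn3 and at 40.9, 34.5 and 36.9 CPM with 6S-A Ngn3. Its log2 changes, 0.91 ± 0.17 and 0.89 ± 0.17, passed with both proteins. Syt14, also without calcium binding, was read at 17.8, 15.5 and 17 CPM in GFP only, at 18.9, 27.6 and 27.3 CPM with WT Ngn3 and at 24.9, 23.9 and 25.7 CPM with 6S-A Ngn3. Its adjusted p of 0.0465 and 0.033 lay close to the threshold, and the call was kept in only 1 and 3 of the 9 fits without 1 replicate. Doc2b, a soluble calcium sensor of insulin granule release, was read at 0.146, 0.115 and 0.786 CPM in GFP only, at 0.713, 1.15 and 1.48 CPM with WT Ngn3 and at 2.01, 2.24 and 2.23 CPM with 6S-A Ngn3. The change passed with 6S-A Ngn3 (log2 change 2.64 ± 0.65, adjusted p = 0.011) and missed with WT Ngn3 (adjusted p = 0.125), where it passed with the block (0.0421) or without replicate 3 of GFP only (0.00673). The remaining sensors were scarce. Syt1, the main calcium sensor of fast synaptic release, averaged 1.65, 0.922 and 1.04 CPM in GFP only, WT Ngn3 and 6S-A Ngn3. Syt4 had 2, 3 and 14 reads and Syt9, a sensor of dense-core granules, 1, 2 and 13 reads over the groups, and none of the 3 passed the test.

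Among the Rab proteins and effectors, the change was largest for Rab3c, a vesicle GTPase of neurons and endocrine cells. Rab3c was read at 0, 0.077 and 0 CPM in GFP only, 2 reads in all. It was read at 14.3, 7.07 and 29.5 CPM with WT Ngn3 and at 33.1, 22.1 and 28.3 CPM with 6S-A Ngn3. The ratio to GFP only was 635 (counting interval 175 to 5249) with WT Ngn3 and 1052 (291 to 8693) with 6S-A Ngn3, with adjusted p-values of 3.05e-05 and 8.64e-06. These intervals cover counting error only, because PCR copies of a molecule were counted apart. Rab3d, the Rab3 of exocrine granules, was read at 34.4, 34.3 and 33.3 CPM in GFP only, at 75.1, 55 and 99.0 CPM with WT Ngn3 and at 92.9, 80.1 and 95.2 CPM with 6S-A Ngn3. Rab3a, the Rab3 of synaptic vesicles, was read at 11.0, 12.4 and 9.07 CPM, at 18.7, 14.6 and 24.1 CPM and at 26.6, 21.3 and 28.6 CPM in the same order. Both were higher with both proteins, Rab3d by 1.18 ± 0.18 and 1.39 ± 0.18 and Rab3a by 0.83 ± 0.21 and 1.24 ± 0.21 on the log2 scale. The call of Rab3a with WT Ngn3 was lost without replicate 1 or 3 of GFP only or replicate 3 of WT Ngn3 (adjusted p up to 0.0849). Even so, Rab3c made up 0.0155%, 4.60% and 6.54% of the summed Rab3 level per length in GFP only, WT Ngn3 and 6S-A Ngn3. Rab3b, another Rab3, stayed at or below 0.739 CPM in every 2-day replicate.

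The pair of Rab27 genes moved in opposite directions. Rab27a, which recruits effectors such as granuphilin to secretory granules, was read at 1.90, 2.08 and 2.50 CPM in GFP only, at 12.9, 4.40 and 15.2 CPM with WT Ngn3 and at 14.2, 11.6 and 13.2 CPM with 6S-A Ngn3. Rab27b, its close homolog, was read at 22.9, 31.1 and 26.0 CPM in GFP only, at 13.4, 10.9 and 10.4 CPM with WT Ngn3 and at 7.19, 8.85 and 10.4 CPM with 6S-A Ngn3. No Ngn3 replicate overlapped GFP only for either gene. Rab27a was higher by 2.34 ± 0.38 (adjusted p = 0.000899) and 2.59 ± 0.38 (adjusted p = 0.000259) on the log2 scale. Rab27b fell by 1.19 ± 0.20 (adjusted p = 0.00108) with WT Ngn3 and by 1.60 ± 0.20 (adjusted p = 6.69e-05) with 6S-A Ngn3. As a share of both genes per length, Rab27a went from 18.4% ± 2.68 (SD, n = 3) in GFP only to 68.5% ± 14.2 with WT and 80.2% ± 3.76 with 6S-A Ngn3. This pair, the Rab3 family and the pair of Cadps and Cadps2 were picked for a share after their values were seen.

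Rph3al, also called Noc2, an effector of Rab3 and Rab27 needed for endocrine secretion, was read at 13.3, 10.7 and 9.94 CPM in GFP only. It was read at 40.2, 24.5 and 85.0 CPM with WT Ngn3 and at 87.0, 56.5 and 95.4 CPM with 6S-A Ngn3. The log2 changes were 2.15 ± 0.42 (adjusted p = 0.010) and 2.81 ± 0.43 (adjusted p = 0.00162), and the first was lost without replicate 2 or 3 of GFP only (adjusted p up to 0.0589). Rims2, the RIM scaffold of beta cell release sites, was read at 8.45, 8.97 and 14.0 CPM in GFP only, at 17.3, 15.0 and 18.5 CPM with WT Ngn3 and at 18.5, 19.4 and 24.2 CPM with 6S-A Ngn3. It was higher with 6S-A Ngn3 (log2 change 0.98 ± 0.22, adjusted p = 0.0061), and with WT Ngn3 it missed (adjusted p = 0.0555, or 0.00501 with the block). Sytl4, which encodes granuphilin, averaged 1.38, 3.90 and 4.58 CPM, and its adjusted p-values of 0.133 and 0.0607 missed the threshold. Rims3 averaged 0.778 to 1.45 CPM in the 2-day groups, and Rims1 had 1, 18 and 4 reads in GFP only, WT Ngn3 and 6S-A Ngn3. Rph3a, the neuronal rabphilin, had 0 reads in all 9 replicates at 2 days.

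The priming factors and SNARE regulators differed widely in their level in GFP only and in their change. Cadps, also called CAPS1, which primes dense-core granules for release, was read at 0.0731, 0.231 and 0 CPM in GFP only, at 8.52, 11.7 and 32.2 CPM with WT Ngn3 and at 19.1, 15.4 and 39.7 CPM with 6S-A Ngn3. Its log2 change was 7.30 ± 0.87 (adjusted p = 0.000457) and 7.79 ± 0.87 (adjusted p = 0.000181). Cadps2, its paralog, averaged 10.5, 9.36 and 8.31 CPM and did not pass the test. Cadps made up 0.629% ± 0.78 (SD, n = 3) of the pair per length in GFP only, 50.0% ± 19.0 with WT and 63.0% ± 10.8 with 6S-A Ngn3. Cplx2, a complexin that clamps and promotes SNARE fusion, was read at 4.10, 3.23 and 4.35 CPM in GFP only, at 25.3, 25.9 and 80.3 CPM with WT Ngn3 and at 54.2, 48.8 and 79.1 CPM with 6S-A Ngn3 (log2 changes 3.50 ± 0.49 and 3.96 ± 0.50). Its neuronal relative Cplx1 had 0, 28 and 5 reads, all 28 in replicate 2 of WT Ngn3. Stxbp5l, or tomosyn-2, which holds syntaxin away from the fusion complex, was read at 0.439, 0.192 and 2.82 CPM in GFP only, at 18.3, 12.5 and 62.2 CPM with WT Ngn3 and at 51.8, 22.3 and 38.9 CPM with 6S-A Ngn3. It was higher with both proteins (log2 changes 4.82 ± 1.05 and 5.10 ± 1.05, adjusted p = 0.0253 and 0.0141). The first call was lost without replicate 1 or 2 of GFP only or replicate 3 of 6S-A Ngn3 (adjusted p up to 0.101) and the second without replicate 1 of GFP only (0.0644).

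Its widely expressed relative Stxbp5, or tomosyn-1, averaged 18.6, 24.7 and 23.4 CPM and did not pass. Unc13a, or Munc13-1, which opens syntaxin for priming, averaged 10.3, 16.3 and 18.5 CPM, with adjusted p-values of 0.157 and 0.0501 that became 0.0178 and 0.00158 with the block. Unc13b, or Munc13-2, averaged 74.9, 59.9 and 63.9 CPM, and its log2 change with WT Ngn3 of -0.31 ± 0.12 passed with the block alone (adjusted p = 0.13 and 0.0308). Stxbp2, the Munc18 of epithelial and blood cells, had the highest mean of the members in CPM not divided by exon length, at 237, 268 and 276 CPM. WT Ngn3 gave no call for it, and its log2 change of 0.22 ± 0.11 under 6S-A Ngn3 passed only in the blocked fit (adjusted p = 0.198 without the block and 0.0486 with it).

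The membrane proteins of vesicles and granules gave the largest family median with 6S-A Ngn3, a log2 change of 2.80 over the 7 genes, and 1.56 with WT Ngn3. Ptprn2, also called phogrin or IA-2 beta, a receptor phosphatase-like protein of the granule membrane, was read at 0.0366, 0.077 and 0.0463 CPM in GFP only, 4 reads in all. It was read at 25.8, 7.01 and 32.9 CPM with WT Ngn3 and at 40.6, 19.7 and 32.5 CPM with 6S-A Ngn3. Ptprn, or IA-2, its granule partner, was read at 18, 15.6 and 27.3 CPM in GFP only, at 45.8, 54.7 and 78.3 CPM with WT Ngn3 and at 56.8, 47.0 and 85.0 CPM with 6S-A Ngn3. The log2 change of Ptprn2 was 8.55 ± 0.83 and 9.04 ± 0.83, whereas that of Ptprn, which GFP-only cells already expressed, was 1.56 ± 0.28 and 1.63 ± 0.28. Syn2, a synapsin that tethers vesicles, was read at 0, 0.269 and 0 CPM in GFP only, at 10.3, 9.94 and 21.4 CPM with WT Ngn3 and at 24.1, 17.3 and 27.5 CPM with 6S-A Ngn3 (log2 changes 7.15 ± 0.67 and 7.87 ± 0.67). Syp, synaptophysin, a marker of neuroendocrine vesicles, was read at 0.219, 0 and 0 CPM in GFP only, at 4.0, 0.733 and 3.55 CPM with WT Ngn3 and at 4.90, 2.86 and 3.88 CPM with 6S-A Ngn3 (log2 changes 5.06 ± 0.90 and 5.54 ± 0.90). Syn1, the other synapsin, was read at 1.54, 0.154 and 0.324 CPM, at 1.78, 1.10 and 2.91 CPM and at 3.98, 2.91 and 3.61 CPM. It was higher with 6S-A Ngn3 (log2 change 2.36 ± 0.65, adjusted p = 0.0213), and WT Ngn3 overlapped GFP only. The call with 6S-A Ngn3 was lost without replicate 2 or 3 of GFP only or replicate 1 of 6S-A Ngn3 (adjusted p up to 0.0818). With WT Ngn3, Syn1 passed without replicate 1 of GFP only and with technical repeat 1 alone. The vesicle glycoproteins stayed low, with Sv2a at 0.211 to 0.625 CPM on average and Sv2b at 2, 3 and 14 reads, and neither passed.

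**Figure D3:**
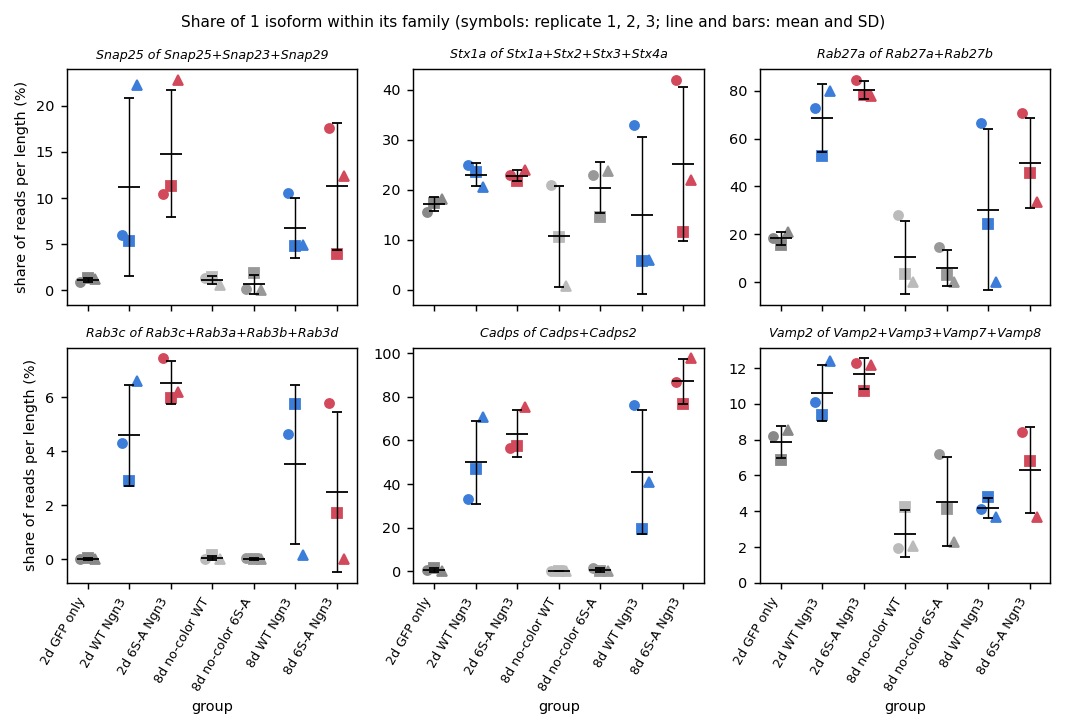
Share of 1 isoform in the summed level per exon length of its family, in percent, for 6 families in the 7 groups, with each replicate as a symbol and the mean and SD as lines. Rab27a and Cadps went from 18.4% and 0.629% of their pairs in GFP only to 80.2% and 63.0% with 6S-A Ngn3 at 2 days, while Snap25 reached 14.8% and Rab3c 6.54% of their families. At 8 days the share of Rab27a scattered from 0% to 66.5% with WT Ngn3.

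The windows before the annotated start were read for the members that moved together and for a steady one. RefSeq promoter windows of build GRCm38.p6 (250 bases before to 50 after the start) matched 38 of the 49 members, in 49 windows. Basic helix-loop-helix factors such as Ngn3 can bind E-boxes, whose general form is CANNTG, and 3 hexamers of that form were searched on both strands. The palindromic hexamer CAGCTG stood in 26.5% of the members' windows and in 16.3% of all 32851 windows. The hexamer CAGATG stood in 10.2% of the members' windows and in 17.2% of all windows. The hexamer CAGGTG stood in 20.4% and 20.2% of them. Among the 20 windows of members called higher in at least 1 comparison with control, the palindromic hexamer stood in 30%, and among the 27 windows of members called in none in 25.9%. The general form stood in 71.4% of the members' windows and in 72.3% of all windows. The 250 bases before the start are given here for Rab3c, Ptprn2, Cadps and Syn2, the members with the largest log2 changes at 2 days, and for the steady Snap23, with matches to the 3 hexamers in capitals. Rab3c is at chr13:110280207-110280456 (minus strand), Ptprn2 at chr12:116485470-116485719 (plus), Cadps at chr14:12823080-12823329 (minus), Syn2 at chr6:115134652-115134901 (plus) and Snap23 at chr2:120567421-120567670 (plus). The RefSeq start of Rab3c lies 790 bases downstream of the start of the gene in the annotation used for exon lengths, and the starts used for the other 4 genes are the same in both. RefSeq gives Syn2 a second start, 104092 bases downstream, whose window is not printed and held 1 match to CAGATG. Rab3c held 1 match to CAGCTG, Syn2 held 1 to CAGGTG in the window printed, and Ptprn2, Cadps and Snap23 held 0 matches to any of the 3 hexamers.
Rab3c: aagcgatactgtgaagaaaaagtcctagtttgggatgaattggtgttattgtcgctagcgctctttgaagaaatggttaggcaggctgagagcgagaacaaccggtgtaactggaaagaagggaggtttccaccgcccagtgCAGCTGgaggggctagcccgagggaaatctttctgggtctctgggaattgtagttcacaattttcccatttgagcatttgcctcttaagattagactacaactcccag
Ptprn2: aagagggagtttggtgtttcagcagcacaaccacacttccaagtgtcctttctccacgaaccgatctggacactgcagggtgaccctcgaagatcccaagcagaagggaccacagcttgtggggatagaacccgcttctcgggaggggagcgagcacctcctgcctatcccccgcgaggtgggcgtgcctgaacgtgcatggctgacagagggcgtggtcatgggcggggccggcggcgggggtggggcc
Cadps: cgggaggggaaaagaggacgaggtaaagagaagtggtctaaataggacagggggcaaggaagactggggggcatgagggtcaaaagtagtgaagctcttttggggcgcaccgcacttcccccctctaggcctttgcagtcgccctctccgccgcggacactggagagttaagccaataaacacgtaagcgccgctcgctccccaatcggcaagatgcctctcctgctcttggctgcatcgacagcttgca
Syn2: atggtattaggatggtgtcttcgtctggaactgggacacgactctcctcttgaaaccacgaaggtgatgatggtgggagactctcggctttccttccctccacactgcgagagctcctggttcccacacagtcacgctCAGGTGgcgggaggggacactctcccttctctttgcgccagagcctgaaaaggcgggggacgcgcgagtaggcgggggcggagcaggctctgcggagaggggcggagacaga
Snap23: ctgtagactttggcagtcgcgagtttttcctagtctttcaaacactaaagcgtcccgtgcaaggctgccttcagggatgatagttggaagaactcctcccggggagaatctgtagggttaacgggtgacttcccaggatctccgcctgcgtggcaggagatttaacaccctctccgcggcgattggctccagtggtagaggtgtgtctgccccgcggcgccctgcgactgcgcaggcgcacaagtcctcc

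To find whether blocking phosphorylation changed the response, 6S-A Ngn3 was compared with WT Ngn3 at 2 days. Of the 47 members tested, 0 passed with edgeR and 0 with DESeq2, against 0.0126% and 0.407% of all genes. An unadjusted p under 0.05 was found for 1 member, Syt13, and for 5.79% of all genes. Syt13 was higher with 6S-A Ngn3 in all 3 replicates, with a log2 difference of 0.75 ± 0.23 and an adjusted p of 0.573. Without replicate 3 of WT Ngn3, the highest of its group at 227 CPM, the difference was 1.14 with an adjusted p of 0.0321, the only member call that leaving out a replicate gave in this comparison. The median log2 difference of the neuroendocrine isoforms was 0.43 and that of the ubiquitous isoforms -0.04. Among the 18 members higher with both proteins, 7 were higher with 6S-A Ngn3 in all 3 same-numbered replicate pairs, 10 in 2 pairs and 1, Syt14, in 1 pair. Of the 9 ubiquitous isoforms, 1 was higher in all 3 pairs, 2 in 2, 4 in 1 and 2 in 0. No such tally over all genes was made, so these counts are a description. In replicate 3, Snap25 was read at 36.5 CPM with WT Ngn3 and 35.5 CPM with 6S-A Ngn3. Cplx2 was read there at 80.3 and 79.1 CPM and Ptprn2 at 32.9 and 32.5 CPM. In replicate 2 the same genes stood at 8.11 and 18.8, 25.9 and 48.8, and 7.01 and 19.7 CPM. These genes were among the closest of the 18 in replicate 3. Others differed more there, with log2 differences of -0.67 for Stxbp5l, -0.33 for Syt11 and 0.35 for Syn2. In the fit, 26 of the 28 neuroendocrine isoforms tested had a log2 difference above 0, as did 3 of the 9 ubiquitous ones and 11867 of all 23844 genes. At 8 days the counts were 18 of 25 neuroendocrine and 7 of 9 ubiquitous isoforms, and 10209 of all 19696 genes. With the replicate block 0 members passed, against 0.617% of all genes.

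At 8 days, WT and 6S-A Ngn3 cells were compared with the mean of both no-color groups, which they share as controls. With WT Ngn3, 6 of the 49 members were higher and 0 lower, against 0.741% of all genes called higher and 0.173% lower (edgeR, 19696 genes). With 6S-A Ngn3, 10 members were higher and 0 lower, against 1.37% and 0.34% of all genes. With DESeq2, 10 and 13 members were called, against 2.77% and 4.17% of all genes. On counts simulated for the WT Ngn3 comparison, 29.1% of DESeq2's calls and 7.69% of edgeR's were false. Unadjusted p-values under 0.05 were found for 13 and 20 members, and for 10.5% and 12.1% of all genes. With the replicate block 9 and 11 members were called, against 2.4% and 3.57% of all genes. Syt4, Syt9, Rims1, Cplx1 and Sv2b did not pass the filter on low counts at 8 days. All 6 members called with WT Ngn3, Cadps, Cplx2, Ptprn, Ptprn2, Rab3c and Syt13, were also called with 6S-A Ngn3 and in both 2-day comparisons, and the 4 others called with 6S-A Ngn3 were Rph3al, Snap25, Syn2 and Syp. For WT and 6S-A Ngn3 the median log2 change was 0.01 and 0.14 over the ubiquitous isoforms, against 1.73 and 3.85 for the neuroendocrine isoforms and 0.01 and 0.04 for all genes.

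**Figure D4:**
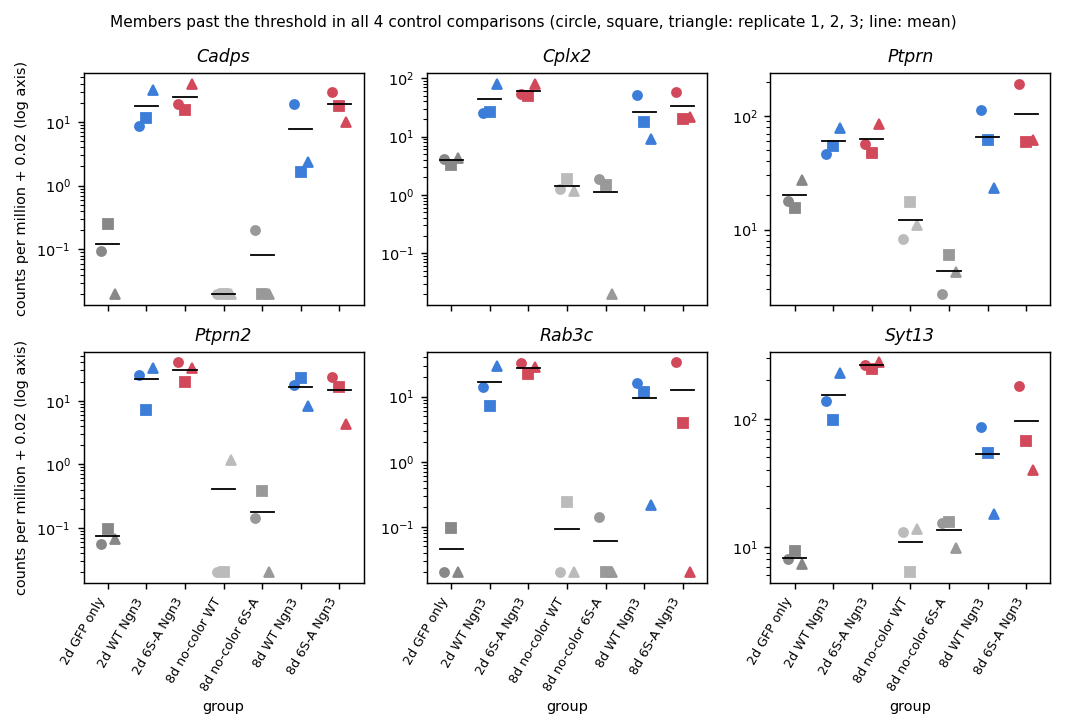
CPM plus 0.02, on a log axis, of the 6 members past the threshold in all 4 comparisons with control, by group, with each replicate as a symbol and the group mean as a line. All Ngn3 replicates of Cadps, Cplx2, Ptprn, Ptprn2 and Syt13 lie above the controls of their day, while Rab3c with 6S-A Ngn3 at 8 days is at 0 in replicate 3.

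Cadps had 3 reads over the 6 no-color replicates and was read at 19.4, 1.60 and 2.37 CPM with WT Ngn3 and at 29.9, 17.8 and 9.84 CPM with 6S-A Ngn3. The ratio to no-color cells was 245 (counting interval 82.9 to 1199) with WT Ngn3 and 463 (158 to 2253) with 6S-A Ngn3, at adjusted p-values of 0.00332 and 0.000747, and both calls were kept in all 22 alternative fits. Cplx2 lay between 0 and 1.85 CPM in the no-color replicates (median 1.34), at 52.2, 17.9 and 9.10 CPM with WT Ngn3 and at 57.3, 20.1 and 21.2 CPM with 6S-A Ngn3. Its log2 changes were 4.38 ± 0.71 (adjusted p = 0.00463) and 4.67 ± 0.71 (adjusted p = 0.00204). Without replicate 1 of WT Ngn3 the first became an adjusted p of 0.0658. Ptprn2 lay between 0 and 1.15 CPM in the no-color replicates (median 0.0612), at 17.8, 22.7 and 8.31 CPM with WT Ngn3 and at 23.8, 16.7 and 4.30 CPM with 6S-A Ngn3 (log2 changes 6.75 ± 1.01 and 6.63 ± 1.01). Ptprn lay between 2.69 and 17.5 CPM in the no-color replicates (median 7.06), at 112, 61.2 and 23.1 CPM with WT Ngn3 and at 192, 58.9 and 61.3 CPM with 6S-A Ngn3. Its log2 changes of 3.20 ± 0.48 and 3.85 ± 0.49 held without any single replicate. Syt13 lay between 6.32 and 15.6 CPM in the no-color replicates (median 13.4), at 86.4, 54.4 and 18.2 CPM with WT Ngn3 and at 180, 67.1 and 40.0 CPM with 6S-A Ngn3. The call with 6S-A Ngn3 (log2 change 2.99 ± 0.48, adjusted p = 0.00307) was kept in all 12 fits without 1 replicate, and that with WT Ngn3 (2.15 ± 0.48, adjusted p = 0.0423) in 3 of 12.

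Rab3c lay between 0 and 0.218 CPM in the no-color replicates (median 0), at 16.2, 11.8 and 0.198 CPM with WT Ngn3 and at 34.0, 3.86 and 0 CPM with 6S-A Ngn3. The passage 5 replicate of each protein was thus at the level of the controls. The adjusted p-values were 0.0494 and 0.0236, and the calls were kept in 3 and 5 of the 12 fits without 1 replicate. Snap25 lay between 0 and 2.61 CPM in the no-color replicates (median 1.07), at 18.2, 7.37 and 6.33 CPM with WT Ngn3 and at 39.1, 7.73 and 23.2 CPM with 6S-A Ngn3. No Ngn3 replicate overlapped the no-color cells. The log2 change was 4.27 ± 0.84 (adjusted p = 0.012) with 6S-A Ngn3 and 3.17 ± 0.83 (adjusted p = 0.0934, or 0.0402 with the replicate block) with WT Ngn3. Snap23 was read at 58.5, 67.6 and 60.9 CPM with WT Ngn3, at 68.0, 81.4 and 59.9 CPM with 6S-A Ngn3 and between 33.4 and 76.8 CPM in the no-color replicates, with overlapping groups.

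Syn2 lay between 0 and 1.31 CPM in the no-color replicates (median 0), at 6.4, 3.84 and 0.198 CPM with WT Ngn3 and at 5.62, 6.20 and 3.53 CPM with 6S-A Ngn3. Syp lay between 0 and 0.18 CPM (median 0.0328), at 8.81, 1.92 and 0 CPM with WT Ngn3 and at 20.6, 0.468 and 0.154 CPM with 6S-A Ngn3, so that most of its level came from replicate 1. Both were called with 6S-A Ngn3 (adjusted p = 0.0241 and 0.0367), and missed with WT Ngn3 (adjusted p = 0.0605 and 0.106). Both passed there with the block (0.0269 and 0.018), with DESeq2 (0.00228 and 0.0227) and with no filter on low counts, and Syn2 also without replicate 3 of WT Ngn3 or replicate 2 of the no-color cells from WT organoids. Rph3al lay between 1.73 and 9.58 CPM in the no-color replicates (median 6.67), at 44.5, 7.69 and 21.2 CPM with WT Ngn3 and at 81.7, 25.4 and 10.3 CPM with 6S-A Ngn3, where the adjusted p was 0.0367. Syn1 was read at 3.99, 2.46 and 8.15 CPM with 6S-A Ngn3 against 0 to 0.984 CPM in no-color cells, with an adjusted p of 0.0676, or 0.0423 with the block. Leaving out replicate 1 of 6S-A Ngn3 lowered the number of members called from 10 to 5, and leaving out replicate 1 of WT Ngn3 from 6 to 3. Calls over all 19696 genes fell in the same fits, from 337 to 192 and from 180 to 67. The 10 calls also became 6 without replicate 1, 2 or 3 of the no-color cells from 6S-A organoids, or without replicate 1 or 3 of those from WT organoids, while calls over all genes became 226, 231, 214, 215 and 270 in that order. Of the calls with 6S-A Ngn3, Syn2 and Rph3al were kept in 5 and Syp in 4 of the 12 fits without 1 replicate, and Snap25 was lost without replicate 1 of 6S-A Ngn3 (adjusted p = 0.0754). Leaving out passage 5 ended the calls of Snap25 and Rph3al, and edgeR's filter on low counts those of Rph3al and Syp. With technical repeat 1 alone, the calls of Rab3c, Snap25, Syn2 and Syp were lost.

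Replicate 1 had the highest level in both Ngn3 groups for Snap25, Cadps, Cplx2, Ptprn, Rab3c, Rph3al, Syp and Syt13 at 8 days. The hormone genes summed to 3070 CPM in 1 WT Ngn3 replicate and to 7.12 and 10.2 CPM in the others, and to 38.3, 1656 and 3170 CPM in the 6S-A Ngn3 replicates, against 2.46 to 11.1 CPM in no-color cells. The neuron markers summed to 7.32 to 39.5 CPM with WT Ngn3, 37.5 to 154 CPM with 6S-A Ngn3 and 5.7 to 12.2 CPM in no-color cells. The ductal markers summed to 14611 to 17489, 10422 to 26022 and 16619 to 41473 CPM in the same order. Neurog3 was read at 6.86 to 46.1 CPM, 9.86 to 15.4 CPM and 0 to 0.989 CPM. The part of these differences in the members' levels was not tested. Compared with its own no-color group alone, WT Ngn3 kept 1 call, Cadps (adjusted p = 0.0475), and 6S-A Ngn3 kept 5, Cadps, Cplx2, Ptprn, Ptprn2 and Syt13. Of all genes, 0.249% and 0.584% were called in these fits, fewer than against both no-color groups.

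At 8 days the syntaxins and VAMPs gave no call, but 2-fold changes were mostly not recovered on simulated counts at that time. Stx3 lay at 41.6, 82.0 and 91.0 CPM with WT Ngn3, at 32.6, 74.6 and 99.0 CPM with 6S-A Ngn3 and between 24.1 and 91.5 CPM in no-color cells, and Stx4a averaged 19.2 and 22.6 CPM against 15.2 to 41.5 CPM. Vamp2 averaged 19.0 and 27.7 CPM against 11.1 to 31.2 CPM, Vamp3 85.8 and 87.8 CPM against 48.4 to 138 CPM, and Vamp8 135 and 143 CPM against 99.8 to 540 CPM. Stx1a ranged from 3.84 to 31.0 CPM with WT Ngn3 and from 9.37 to 42.4 CPM with 6S-A Ngn3, again highest in replicate 1. None of these passed the test. Rab27b, lower at 2 days, averaged 13.0 and 12.9 CPM against 10.4 to 36.6 CPM in no-color cells (log2 changes -1.14 ± 0.47 and -1.15 ± 0.47, adjusted p = 0.385 and 0.304). Rab27a was read at 6.21, 2.24 and 0 CPM with WT Ngn3 and at 10.1, 5.97 and 1.38 CPM with 6S-A Ngn3, against 0 to 4.92 CPM in no-color cells, and did not pass the test. Its share of the pair scattered widely at 8 days, at 66.5%, 24.3% and 0% with WT Ngn3 and 70.6%, 45.5% and 33.6% with 6S-A Ngn3, and averaged 10.4% and 5.8% in the no-color groups. Rab3d, Syt11 and Vamp2, called higher at 2 days, had log2 changes of -0.04 ± 0.49, -0.25 ± 0.58 and -0.09 ± 0.40 with WT Ngn3 at 8 days, and of 0.49 ± 0.48, 0.38 ± 0.56 and 0.45 ± 0.39 with 6S-A Ngn3, and none of these passed the test.

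Between 6S-A and WT Ngn3 at 8 days, 0 of the 44 members tested passed with edgeR and 0 with DESeq2, as did 0% of all genes with either tool. An unadjusted p under 0.05 was found for 1 member and for 2.11% of all genes. That member, Rph3a, had 73 reads in replicate 1 of 6S-A Ngn3, 0 in every other Ngn3 replicate and 4 over the no-color replicates. Of the 18 members higher with both proteins at 2 days, 10 were higher with 6S-A Ngn3 in all 3 same-numbered pairs at 8 days, 5 in 2 and 3 in 1. Of the 9 ubiquitous isoforms, 1 was higher in all 3 pairs, 6 in 2, 1 in 1 and 1 in 0. Here too the pairs were not tallied over all genes. In a joint fit of both times, the change of each protein's effect from 2 to 8 days was tested for 43 members, and 0 passed for either protein, against 0% (WT Ngn3) and 0.0102% (6S-A Ngn3) of 19589 genes. An unadjusted p under 0.05 was found for 2 members in each, Syt13 and Ptprn, a share near the 5.23% and 5.64% over all genes. For Syt13 the log2 effect at 8 days minus that at 2 days was -2.10 ± 0.66 with WT Ngn3 (unadjusted p = 0.00439, adjusted p = 0.688) and -2.02 ± 0.66 with 6S-A Ngn3 (0.00569 and 0.606). For Ptprn it was 1.63 ± 0.66 (unadjusted p = 0.0215, adjusted p = 0.892) and 2.21 ± 0.66 (0.00285 and 0.559). The controls of the 2 times are different kinds of cells, so a change of the effect also holds the difference between GFP-only and no-color cells.

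The same members were followed in single pools of 50 cells, with near-identical technical repeats summed, which left 16 pools in each 2-day group. Of the 18 members higher with both proteins at 2 days, GFP-only pools held 8 to 13 with over 3 reads (median 11), WT Ngn3 pools 15 to 18 (median 18) and 6S-A Ngn3 pools 16 to 18 (median 18). The 18 were chosen for being higher in sums of these same 2-day pools, so lower counts in GFP-only pools were built in. Pools of 1 replicate also share their organoids, so this is a description. Rab3c had over 3 reads in 0 of 16 GFP-only pools, in 15 of 16 WT Ngn3 pools and in 16 of 16 6S-A Ngn3 pools. Snap25 had over 3 reads in 8 of 16 GFP-only pools, at up to 4.93 CPM, and in every Ngn3 pool, where it ranged from 2.34 to 50.2 CPM with WT Ngn3 (median 13.4) and from 4.55 to 81.5 CPM with 6S-A Ngn3 (median 27.2). Syt13 was over 3 reads in every pool of every group, at 1.52 to 20.8 CPM in GFP only, 62.2 to 294 CPM with WT Ngn3 and 161 to 395 CPM with 6S-A Ngn3, so that all Ngn3 pools lay above all GFP-only pools. Syp was the least regular, with over 3 reads in 12 and 14 of 16 Ngn3 pools and in 1 of 16 GFP-only pools. At 8 days, Cadps had over 3 reads in 4 of 4 WT Ngn3 pools, in 6 of 6 6S-A Ngn3 pools and in 0 of 12 no-color pools.

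**Figure D5:**
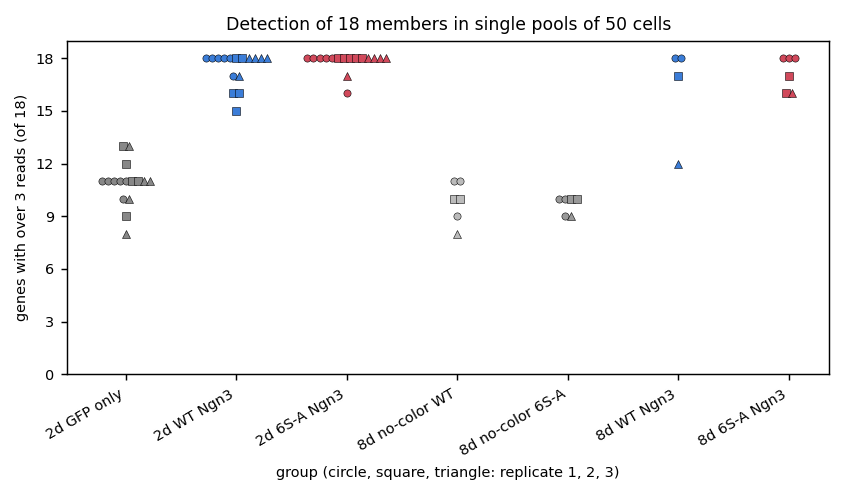
Number of the 18 members higher with both proteins at 2 days that had over 3 reads, in each pool of 50 cells, by group, with symbols for replicates 1 to 3. GFP-only and no-color pools hold 8 to 13 of them, and Ngn3 pools 12 to 18. The members were chosen from sums of the 2-day pools shown, so the 2-day difference was built in.

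Among 68 further genes of the machinery, 64 were tested at 2 days. With WT Ngn3, 12 were higher and 4 lower, against 6.56% and 5.23% of all genes, and with 6S-A Ngn3 14 were higher and 6 lower, against 9.43% and 8.62%. The 9 exocyst subunits, which tether vesicles in all cells, included 0 higher and 1 lower gene with each protein, and the 4 genes of SNARE recycling 1 higher with WT and 0 with 6S-A Ngn3. Of 19 other active zone and priming genes, 4 were higher and 2 lower with each protein. Of 18 other synaptotagmins, synaptotagmin-like proteins and relatives, 4 were higher and 1 lower with WT Ngn3, and 6 and 1 with 6S-A Ngn3. The 10 other SNARE and Munc18 genes had 2 higher and 0 lower with WT Ngn3 and 2 and 2 with 6S-A Ngn3, and the 8 other vesicle membrane genes 1 and 2 higher. Baiap3, a Munc13-like protein of dense-core vesicles, averaged 0.266 CPM in GFP only, 36.3 CPM with WT Ngn3 and 55.3 CPM with 6S-A Ngn3 at 2 days, and 30.9 and 81.6 CPM at 8 days. Rimbp2, a RIM-binding protein of release sites, averaged 2.18 and 2.71 CPM at 2 days against 1 read in GFP only, and Bsn, the active zone scaffold bassoon, 3.40 and 5.42 CPM against 0.0924 CPM. Sytl2 averaged 2.86 and 4.42 CPM against 0.0494 CPM, and Snap91, a clathrin adaptor of synaptic vesicle recycling, 1.70 and 2.14 CPM against 0.0661 CPM. Syt6 had 0 reads in GFP only and was at least 38.7-fold higher with WT Ngn3 and 36.2-fold higher with 6S-A Ngn3 against a floor of 3 reads over the group. With 6S-A Ngn3, Syt16 was at least 16.1-fold higher at 2 days, and Esyt3 was at least 33.2-fold higher at 8 days on the same floor. At 8 days 61 of the 68 were tested, and 2 were higher with WT Ngn3, Baiap3 and Rimbp2, and 5 with 6S-A Ngn3, against 0.741% and 1.37% of all genes, with 0 lower in either comparison.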

How the data were processed

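RNA-seq libraries of sorted 50-cell pools were analysed from the table of counts per gene that the authors deposited. The authors aligned single-end reads to mm10 with GSNAP and counted reads per gene of Ensembl release 81 with HTSeq 0.5.3p3, without normalization; the strand setting and the handling of reads with several alignments are not given in the sources used here. Of all reads, 22.5% were not aligned, 14.4% fell in no gene and 8.06% were ambiguous, and these stayed out of library sizes. The deposited labels and the methods name different HiSeq models.

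Libraries with under 30% spike-in reads, over 1000000 gene reads and over 10000 detected genes were kept (76 of 77), and technical repeats were summed. At each time point, genes seen in at least 5 retained libraries entered edgeR 4.0.16 in R 4.3.3 (TMM, robust quasi-likelihood test, all groups of that time in 1 fit, Benjamini-Hochberg adjustment, threshold 0.05). The SE is the log2 change divided by the root of F. Levels are CPM on a TMM scale over all 21 replicates. Against a control of 0 reads, folds are lower bounds on 3 reads; against 1 to 3 reads, ratios carry a 95% exact interval. On simulated counts edgeR recovered 58% of genes changed by 2-fold and 81% by 4-fold for WT Ngn3 at 2 days (9.74% of calls false), and 6% and 66% at 8 days (7.69% false), so 2-fold changes at 8 days were mostly not recovered. With DESeq2, in the same WT Ngn3 comparisons, 18.2% of calls were false at 2 days and 29.1% at 8 days. The simulation raised a small set of genes, all expressed in the controls, by 2- or 4-fold and lowered none. Its shares therefore need not hold for the calls in the data or for near-silent genes. Nothing used here says that replicates came from separate mice, so p-values measure the spread between these samples.

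Same-numbered replicates deviated together (correlations 0.112 to 0.529 over 9 pairs at 2 days and 0.116 to 0.638 over 18 pairs at 8 days), so their numbers were taken to pair them, and a second fit took replicate number as a blocking factor. At 2 days, technical repeats 2 and 3 of replicates 2 and 3 were near-identical (chi-square per gene 1.59 to 2.35, and at least 5.21 for every other pair), and were counted once in an alternative chosen after seeing the data.

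Values per replicate are given for members called in at least 1 of the 4 comparisons with control and for Snap25, Snap23, Stx1a, Stx3, Stx4a, Vamp2, Vamp3 and Vamp8; of the 68 further genes, at most the 8 with the largest change are named. Members, gene lists and isoform classes were chosen with earlier results of these data known. Exon lengths come from a GENCODE annotation of GRCm38. Exons of 14 members overlap another gene, 13 of them on the opposite strand, and 8 of the 14 are among the called members, which makes their counts less certain.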

Additional observations from a re-analysis of the deposited data

Results flagged for a closer look

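The 1 library that was not retained was technical repeat 1 of replicate 2 of WT Ngn3 at 8 days, with 849278 gene reads. It entered only the alternative fit with all 77 libraries. Scaled to its own gene reads, it held Cadps at 17.7 CPM (15 reads), Cplx2 at 8.24 CPM (7 reads) and Ptprn at 162 CPM (138 reads), each above the highest of 12 no-color pools (0.842, 4.82 and 23.9 CPM). Syt13 was at 3.53 CPM there, below the highest no-color pool at 20.2 CPM.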

How the results depend on the processing

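In the comparison of 6S-A Ngn3 with GFP only at 2 days, 25 members were called, and 13 with technical repeat 1 alone, as calls over all genes went from 4305 to 1658. For WT Ngn3 against no-color cells, the 6 calls became 10 with DESeq2, 11 with no filter on low counts and 1 against its own no-color group (over all genes, 180 became 545, 724 and 49). For 6S-A Ngn3 against no-color cells, the 10 calls became 17 with no filter, 6 with technical repeat 1 alone and 5 against its own no-color group (over all genes, 337 became 1044, 228 and 115). The cause was not tested. Leaving out each replicate in turn gave 15 to 19 calls for WT Ngn3 and 21 to 27 for 6S-A Ngn3 at 2 days, 3 to 7 and 5 to 10 at 8 days, and 0 to 1 between 6S-A and WT Ngn3 at 2 days. Over all genes the same fits gave 1966 to 2815, 3302 to 4502, 67 to 231, 192 to 349 and 0 to 5 calls. Blocking on replicate number, the counts in the same order were 27, 29, 9 and 11, and 0 for both direct comparisons. The blocked fit lost no call, and the calls it added are given beside the genes. DESeq2 or scran size factors, edgeR's filter, all 77 libraries and, chosen after seeing the data, leaving out passage 5 or the near-identical repeats kept every count within 1.5 times. Even so, edgeR's filter or all 77 libraries left 4 of the 6 calls with WT Ngn3 at 8 days, without Rab3c and Syt13. DESeq2 size factors ended the Rab3c call in the same comparison. No called member changed sign in any fit.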
